A study of Mus musculus with 12 samples.

Results

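A group of 8 genes of the outermost epidermis was followed: filaggrin (Flg), filaggrin 2 (Flg2), hornerin (Hrnr), loricrin (Lor), involucrin (Ivl), caspase 14 (Casp14) and the transglutaminases Tgm1 and Tgm3. They were looked up by symbol on expression arrays of mouse dorsal skin in which a transgene for the cytokine IL-17C was combined with loss of IL-6. All 8 of the listed genes were measured, each by 1 array row that names it alone, out of 22180 genes measured this way.

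Keratinocytes move outward from the basal layer and end as dead, flattened corneocytes. In the granular layer they make profilaggrin, a long repeat protein stored in keratohyalin granules, which is cut into filaggrin units that bundle keratin filaments and are later broken down into moisture-holding amino acids. Filaggrin 2 and hornerin are built in the same way, with an S100-like start followed by repeats. Loricrin and involucrin are laid down under the cell membrane and cross-linked by transglutaminases into the cornified envelope, and caspase 14 is a protease of the cornifying cell that takes part in filaggrin breakdown. In psoriasis plaques of human skin, filaggrin and loricrin are often reduced while involucrin and transglutaminase 1 appear in lower layers than usual.

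RNA of dorsal skin was measured on 12 arrays, in 6 groups of C57Bl/6 mice. IL-17C+ mice carry the IL-17C transgene and have IL-6, and their skin was taken as involved and as uninvolved areas. IL-17C+KO mice carry the transgene and lack IL-6, and were also sampled as involved and uninvolved skin. The comparison animals were IL-6KO mice, which lack IL-6 and carry no transgene, and WT mice, which have neither change. Each group had 1 pool at 10 weeks and 1 pool at 14 weeks of age. A pool held skin of 4 mice for IL-6KO and WT at 10 weeks and of 5 mice otherwise, with both sexes mixed. The 2 ages therefore serve as the replicates (n = 2 pools per group), the number of arrays limits the precision of every value, and each p-value reflects only how these 12 pools scatter, which may be partly technical. The sources used here do not give the promoter that drives the transgene, the number of founder lines, or whether involved and uninvolved pools share mice. The labels give the skin type of IL-6KO pools as involved and that of WT pools as uninvolved, although the protocol says that matching regions were taken from both.

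Several values bear on the labels and on tissue content. Epidermal identity was plain in all 12 arrays: on the log2 scale of intensity, Krt10 lay between 12.06 and 12.62, Krt1 between 9.46 and 11.98 and Krt14 between 9.49 and 11.31. The mean level of 11 measured neutrophil genes of 12 listed was 7.63 in IL-17C+ involved skin and 4.05 in IL-17C+ uninvolved skin, but 4.61 in IL-17C+KO involved skin and 7.68 in IL-17C+KO uninvolved skin, against 4.56 in IL-6KO and 3.98 in WT skin. These neutrophil genes were thus high under the opposite site label in mice without IL-6, and the 4 IL-17C+KO libraries are named by their labels throughout. Il17c itself, at 10 and 14 weeks, was at 5.81 and 6.63 in IL-17C+ involved skin, 4.74 and 4.16 in IL-17C+ uninvolved skin and 4.67 and 4.96 in WT skin, and it was as high as 6.30 and 6.17 in IL-6KO skin, which carries no transgene. In IL-17C+KO skin it was at 5.32 and 5.62 in the involved and at 6.16 and 6.25 in the uninvolved libraries, and the site effect in IL-17C+KO minus that in IL-17C+ mice was -2.51 ± 0.42 (limma adjusted p = 0.0067). Il6 was highest in the libraries labelled IL-17C+KO uninvolved, at 4.93 and 5.00, against 2.92 and 2.88 in WT skin, and the sources used here do not say whether the Il6 row lies inside the deleted part. Skeletal muscle genes, 21 of 21 listed, averaged 7.60 in IL-17C+ involved, 10.02 in IL-17C+ uninvolved, 9.30 in IL-17C+KO involved, 8.43 in IL-17C+KO uninvolved, 8.53 in IL-6KO and 9.92 in WT skin.

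Over the arrays Flg, Hrnr and Casp14 kept close company, while Flg2 and Lor did not follow them. Tgm1 and Tgm3 also kept close to Casp14 (Pearson r 0.94 and 0.88) but are not among the 5 members shown. Sequences just upstream of the transcript start are shown for Flg, Flg2, Hrnr, Lor and Casp14. They are from RefSeq, build GRCm38.p6, read 5′ to 3′ on the gene's own strand and ending 1 base before the start that the promoter table gives. Capitals mark the letters TATAAA of a TATA box and TGANTCA, the loose pattern searched for AP-1, with any base at N. AP-1 is the Fos and Jun factor pair active in suprabasal keratinocytes.
Flg (chr3:93273426-93273545, plus strand): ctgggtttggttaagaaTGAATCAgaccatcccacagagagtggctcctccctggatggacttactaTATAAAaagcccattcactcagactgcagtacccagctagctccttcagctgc
Flg2 (chr3:93197153-93197272, plus strand): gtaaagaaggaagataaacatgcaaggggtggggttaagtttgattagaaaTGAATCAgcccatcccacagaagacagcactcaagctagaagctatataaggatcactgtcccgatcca
Hrnr (chr3:93319629-93319748, plus strand): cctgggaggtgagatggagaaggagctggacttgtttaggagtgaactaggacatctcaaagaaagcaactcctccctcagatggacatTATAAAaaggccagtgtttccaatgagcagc
Lor (chr3:92083143-92083262, minus strand): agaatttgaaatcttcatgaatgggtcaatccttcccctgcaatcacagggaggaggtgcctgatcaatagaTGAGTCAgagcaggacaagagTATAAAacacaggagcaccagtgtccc
Casp14 (chr10:78718294-78718413, minus strand): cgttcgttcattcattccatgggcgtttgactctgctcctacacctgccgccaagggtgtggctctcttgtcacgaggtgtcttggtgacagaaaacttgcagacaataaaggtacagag
Of the 8 members, 5 (Flg, Flg2, Hrnr, Lor and Ivl) lie on chromosome 3, in the epidermal differentiation complex, while Casp14 is on chromosome 10, Tgm1 on 14 and Tgm3 on 2.

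Both strands of windows of 250 bases before to 50 bases after the start were searched, 9 windows for the 8 members since Tgm1 has 2 starts. TATAAA was found in Flg, Hrnr, Lor, Ivl and Tgm3, and 13.6% of all 32851 windows hold it. TGANTCA, which reads the same on both strands, was found in Flg, Flg2, Lor and Ivl, first base 103, 69, 48 and 116 bases before the start, and 7.81% of all windows hold it. Flg and Flg2 both have TGAATCA, Lor has TGAGTCA and Ivl has TGACTCA. The Klf core CCACCC was found in Flg, Flg2, Ivl, Casp14 (2 overlapping copies) and both Tgm1 windows, against 31.5% of all windows, and AACCGGTT, bound by Grhl factors, was found in no member and in 0.146% of windows.

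The stretch around the AP-1 letters is shared between the 2 filaggrin genes, whose levels did not run together. Over 31 bases with 12 on either side of the AP-1 letters, Flg2 is identical to Flg at 27 positions, and the best ungapped match in the Hrnr window reaches 21.
Flg: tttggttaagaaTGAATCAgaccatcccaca
Flg2: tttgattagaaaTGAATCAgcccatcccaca
Hrnr: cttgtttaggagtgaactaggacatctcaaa
The letters TGANTCA are present in Flg and Flg2 and not in this stretch of Hrnr. A match is a description of letters and says nothing of binding in these samples.

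**Figure D1:**
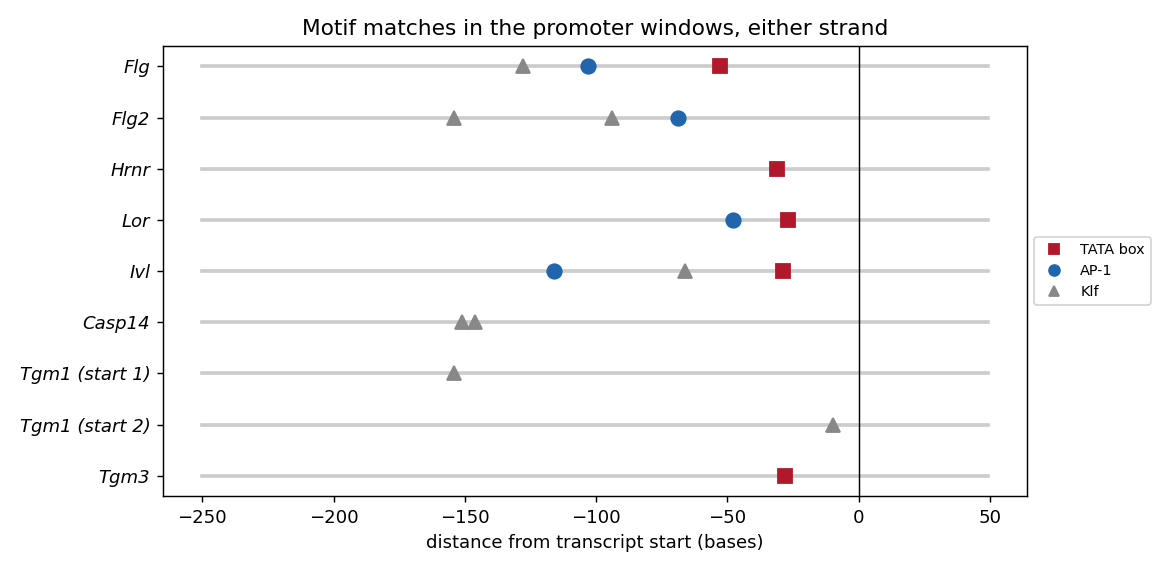
Positions of TATA box (squares), AP-1 (circles) and Klf (triangles) letters on either strand, as distance in bases from the transcript start (x axis), in the 9 promoter windows of the 8 barrier genes (y axis). AP-1 letters lie 103 bases before the start in Flg and 69 in Flg2, and the windows of Hrnr, Casp14, Tgm1 and Tgm3 show none.

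Among the filaggrin family, filaggrin itself had 2 levels. At 10 and 14 weeks Flg was at 9.80 and 10.15 in IL-17C+ involved skin, 8.04 and 7.33 in IL-17C+ uninvolved skin, 8.23 and 10.94 in IL-17C+KO involved skin, 10.12 and 10.21 in IL-17C+KO uninvolved skin, 9.55 and 11.06 in IL-6KO skin and 7.47 and 7.62 in WT skin. All pools of IL-17C+ involved, IL-17C+KO uninvolved and IL-6KO skin were above every pool of IL-17C+ uninvolved and WT skin, and the IL-17C+KO involved pools lay apart, the 10-week one just above the highest IL-17C+ uninvolved pool and the 14-week one among the highest arrays. From highest to lowest group mean, the first 4 groups (IL-6KO, IL-17C+KO uninvolved, IL-17C+ involved, IL-17C+KO involved) each overlapped the next, and so did the last 2, IL-17C+ uninvolved and WT. The lowest and the highest array differed by 13.2-fold.

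Filaggrin 2 took another course. Flg2 was at 6.81 and 6.57 in IL-17C+ involved skin, 9.31 and 8.95 in IL-17C+ uninvolved skin, 9.61 and 9.07 in IL-17C+KO involved skin, 8.08 and 6.86 in IL-17C+KO uninvolved skin, 8.99 and 8.88 in IL-6KO skin and 8.67 and 9.67 in WT skin. Both IL-17C+ involved pools were below all 10 other arrays, next came the IL-17C+KO uninvolved pools, and the other 4 groups overlapped one another in order of their means. The 4 arrays with low Flg2 are the 4 with high neutrophil genes. Flg was high in these 4, but Flg and Flg2 were both high in the IL-6KO pools and in the 14-week IL-17C+KO involved pool.

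Hornerin followed filaggrin. Hrnr was at 9.31 and 9.60 in IL-17C+ involved skin, 9.01 and 7.61 in IL-17C+ uninvolved skin, 9.68 and 11.06 in IL-17C+KO involved skin, 9.78 and 9.72 in IL-17C+KO uninvolved skin, 9.75 and 10.87 in IL-6KO skin and 7.97 and 7.75 in WT skin. WT skin had the lowest mean, although the 14-week IL-17C+ uninvolved pool was lower than both WT pools, and the highest array was the 14-week IL-17C+KO involved pool, 10.9-fold above the lowest. In order of their means, IL-17C+KO involved, IL-6KO and IL-17C+KO uninvolved skin each overlapped the next, IL-17C+ involved skin stood apart below them, and IL-17C+ uninvolved and WT skin overlapped.

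The envelope proteins varied least, with an SD over the 12 arrays of 0.48 for Lor and 0.54 for Ivl. Lor was at 9.54 and 9.29 in IL-17C+ involved skin, 9.62 and 9.67 in IL-17C+ uninvolved skin, 10.54 and 10.42 in IL-17C+KO involved skin, 9.57 and 8.90 in IL-17C+KO uninvolved skin, 10.23 and 9.74 in IL-6KO skin and 9.57 and 10.22 in WT skin. The IL-17C+KO involved pools stood above all others for loricrin, IL-6KO, WT and IL-17C+ uninvolved skin overlapped in that order, and so did IL-17C+ involved and IL-17C+KO uninvolved skin at the low end. Ivl was at 7.81 and 7.82 in IL-17C+ involved skin, 7.63 and 8.30 in IL-17C+ uninvolved skin, 7.90 and 8.75 in IL-17C+KO involved skin, 8.07 and 7.88 in IL-17C+KO uninvolved skin, 7.89 and 8.79 in IL-6KO skin and 6.78 and 7.51 in WT skin. Both WT pools were the lowest for involucrin, the other 5 groups overlapped in order of their means, and the highest array was 4.01-fold above the lowest.

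Caspase 14 had the widest range of the 8 genes, 23-fold. Casp14 was at 8.36 and 8.71 in IL-17C+ involved skin, 6.00 and 5.71 in IL-17C+ uninvolved skin, 6.22 and 9.21 in IL-17C+KO involved skin, 8.87 and 8.71 in IL-17C+KO uninvolved skin, 7.74 and 9.38 in IL-6KO skin and 4.85 and 5.87 in WT skin. The order of arrays was close to that of filaggrin, with IL-17C+ uninvolved and WT pools low and overlapping, and with the same split of the IL-17C+KO involved pools by age.

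Both transglutaminases were lowest in WT skin. Tgm1, the membrane-anchored enzyme of the envelope, was at 8.28 and 8.35 in IL-17C+ involved skin, 7.20 and 7.41 in IL-17C+ uninvolved skin, 7.45 and 8.41 in IL-17C+KO involved skin, 8.53 and 8.21 in IL-17C+KO uninvolved skin, 7.36 and 8.35 in IL-6KO skin and 6.53 and 6.94 in WT skin. Tgm3, the soluble enzyme of epidermis and hair follicle, was at 6.98 and 6.85 in IL-17C+ involved skin, 5.85 and 6.48 in IL-17C+ uninvolved skin, 5.46 and 6.98 in IL-17C+KO involved skin, 6.99 and 6.62 in IL-17C+KO uninvolved skin, 6.84 and 7.37 in IL-6KO skin and 4.64 and 4.99 in WT skin. For both genes the WT pools did not overlap any other group.

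**Figure D2:**
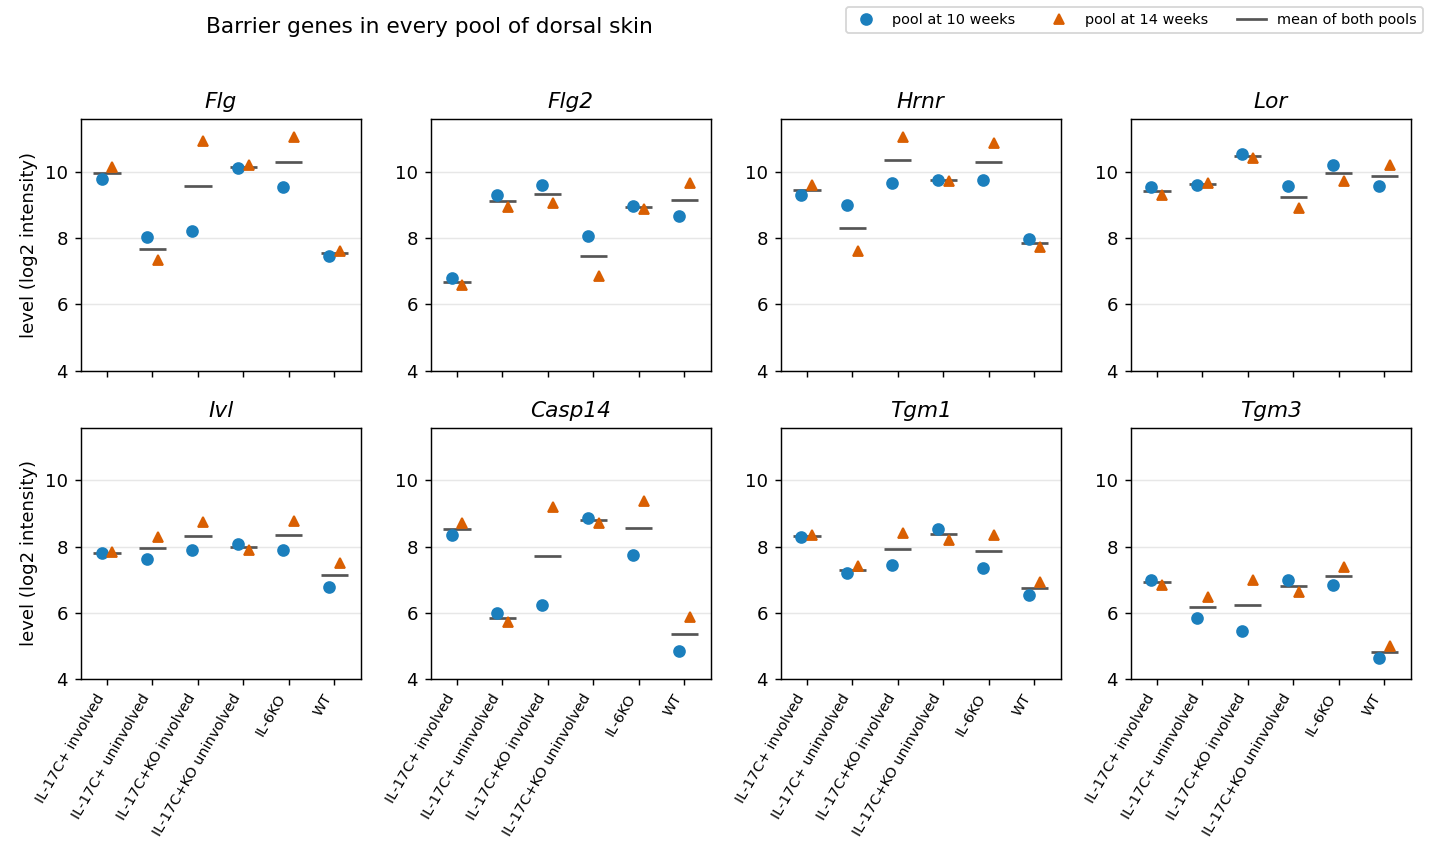
Level of each barrier gene (log2 intensity, y axis) in every pool of the 6 groups (x axis), with circles for 10 weeks, triangles for 14 weeks and a line at the mean of the 2 pools. Flg2 is lowest in IL-17C+ involved skin (6.81 and 6.57), where Flg and Casp14 are high, and the 2 IL-17C+KO involved pools lie far apart for Flg (8.23 and 10.94).

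The first comparison asked how the affected skin of transgenic mice differs from normal skin. In IL-17C+ involved skin, 3 of the 8 genes rose over WT and 1 fell, against 1.8% of all 22180 genes called in this comparison (limma, adjusted p under 0.05 by Benjamini-Hochberg). The median difference of the 8 members was 1.59 on the log2 scale, and that of all genes was 0.01. Casp14 rose by 3.17 ± 0.60 (log2 difference ± SE, adjusted p = 0.0188 by limma), a 9.02-fold change. Tgm3 rose by 2.10 ± 0.36 (limma adjusted p = 0.0121) and Tgm1 by 1.58 ± 0.32 (limma adjusted p = 0.0267). Flg2 fell by 2.48 on the log2 scale, with an SE of 0.40 (limma adjusted p = 0.00809), to a level 5.59-fold lower than in WT. Each of the 4 had the same direction at both ages. The WT levels of Tgm3 (4.64 and 4.99) and of Casp14 at 10 weeks (4.85) lay close to the array medians of 4.62 and 4.55, whether they are above background was not tested, and folds over WT may be understated for these genes. In bulk skin, fewer cells of a type and less RNA per cell cannot be told apart.

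The other 4 genes did not pass over WT. Flg differed by 2.43 ± 0.59 (limma adjusted p = 0.0605), and it passed in the fits that left out the 4 IL-17C+KO arrays (limma adjusted p = 0.0123) or these and the 2 IL-6KO arrays (0.00165), alternatives chosen after seeing the data. It also passed among genes above the array median (0.0425) and when any 1 IL-17C+ uninvolved or IL-17C+KO involved pool was left out. Hrnr differed by 1.60 ± 0.50 (limma adjusted p = 0.168), Ivl by 0.67 ± 0.30 (0.403) and Lor by -0.47 ± 0.32 (0.636). The calls of Casp14 and Tgm1 ended when either IL-17C+ involved pool or either WT pool was left out, that of Flg2 without either IL-17C+ involved pool or the 14-week WT pool, and that of Tgm3 without the 10-week IL-17C+ involved or the 14-week WT pool. Leaving out an array changed the calls over all genes too, here and in the comparisons below that called any.

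Muscle content moved with these differences: 18 of 21 skeletal muscle genes were lower in IL-17C+ involved skin than in WT, at a mean level of 7.45 to 7.74 against 9.52 to 10.33. With the muscle list mean as a covariate the standard errors grew 1.5 times in the median. That fit called 0% of all 22180 genes and so none of the 8. The differences in it were 0.89 for Casp14, 0.67 for Tgm3, 0.58 for Tgm1 and -1.84 for Flg2 (limma adjusted p = 0.999 for each). Neutrophil genes were higher, 9 of 11 called, at 7.42 to 7.84 against 3.75 to 4.22. Hair shaft genes had 3 of 15 called higher, at 7.16 to 8.04 against 5.60 to 6.12. Their part in the result was not tested apart from the covariate for muscle.

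Around the 8 genes, keratinocyte and barrier genes split in the same comparison. Of 14 measured genes for filaggrin processing and S100-fused relatives, 2 rose and none fell: Rptn, a granular-layer relative of filaggrin, by 4.81 ± 0.62 (limma adjusted p = 0.00211) and Klk14, a desquamation protease, by 1.05 ± 0.21 (0.0275). The filaggrin-degrading protease gene Blmh differed by 1.62 ± 0.38 (limma adjusted p = 0.0549). Of 17 envelope and desmosome genes, Cnfn (cornifelin) rose by 2.31 ± 0.39 and Dsg1b, a desmosomal cadherin, by 1.58 ± 0.37 (limma adjusted p = 0.0107 and 0.0495), and none fell. None of 17 barrier lipid genes passed, Cers3 (ceramide synthase) coming closest at 1.32 ± 0.32 (limma adjusted p = 0.0608), while 1 of 20 regulators rose, Cebpb at 1.11 ± 0.24 (0.0335), and 1 of 9 tight junction genes, Marveld2, fell by 1.07 (0.027). The list medians were 0.98, -0.01, 0.84, 0.08 and -0.10 in that order, against 0.01 for all genes.

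Keratinocyte markers, 15 measured, split as well, with 3 lower and 1 higher. Krt77, a suprabasal keratin, fell by 4.23 on the log2 scale (SE 0.54, limma adjusted p = 0.00188), the basal gene Krt15 fell by 3.13 (0.003) and the basal gene Col17a1 fell by 1.43 (0.0235), while Krt14 rose by 1.52 ± 0.30 (0.0247). Krt1 differed by 1.99 ± 0.47 (limma adjusted p = 0.0513). Krt10 differed by -0.07 ± 0.29 and Krt2 by -0.01 ± 0.24, with limma adjusted p of 0.964 and 0.992.

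**Figure D3:**
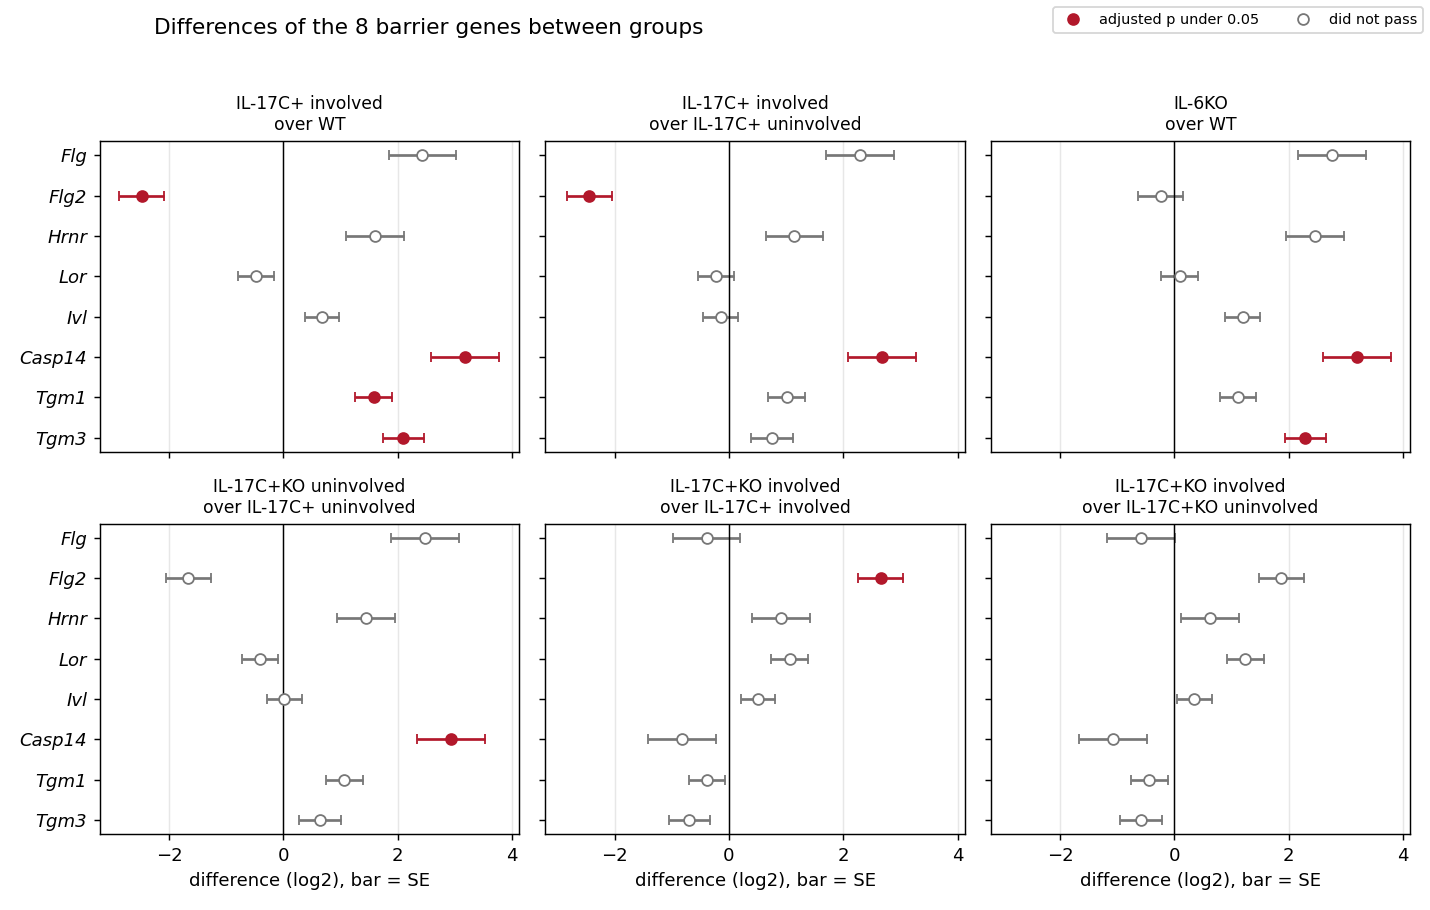
Log2 difference (x axis, points with SE bars) of the 8 barrier genes (y axis) in 6 comparisons, 1 per panel, with filled points for adjusted p under 0.05 and open points for those that did not pass. Casp14 and Flg2 lie on opposite sides of 0 over WT in IL-17C+ involved skin (3.17 and -2.48).

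Within transgenic mice that have IL-6, involved skin was set against uninvolved skin. Here 2 of the 8 genes were called, against 1.61% of all genes. Casp14 rose by 2.68 ± 0.60 (limma adjusted p = 0.0428) and Flg2 fell by 2.44 on the log2 scale (SE 0.40, limma adjusted p = 0.00775), with each pair of pools at 1 age in the same direction. Flg differed by 2.29 ± 0.59 (limma adjusted p = 0.0862), and it passed without the 4 IL-17C+KO arrays (0.0173) and without either IL-17C+KO involved pool. Tgm1 at 1.01 ± 0.32, Hrnr at 1.15 ± 0.50, Tgm3 at 0.75 ± 0.36, Lor at -0.23 ± 0.32 and Ivl at -0.15 ± 0.30 did not pass. The call of Flg2 ended without either involved pool or the 10-week uninvolved pool. That of Casp14 ended without any 1 of the 4 pools compared, without either IL-6KO pool, without the intensity trend (limma adjusted p = 0.0616), and with genotype and age as a pair (0.0709), while Flg2 kept its call in these last 2 fits.

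From the surrounding lists, Rptn rose by 4.10 ± 0.62 (limma adjusted p = 0.00553) and Degs2, a sphingolipid desaturase, by 1.48 ± 0.30 (0.0269), and no other gene of the 5 lists passed. Skeletal muscle genes were again lower, 18 of 21 called, at 7.45 to 7.74 in involved skin and 9.81 to 10.24 in uninvolved skin. With that list as a covariate, Casp14 differed by 0.31 and Flg2 by -1.78 (limma adjusted p = 1 for both), and 0% of all genes passed.

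Uninvolved IL-17C+ skin was set against WT skin to look for an effect of the transgene outside the affected areas. No member passed (limma), against 0.0541% of all genes, and 2 of the 8 had an unadjusted limma p under 0.05, as did 1261 of the 22180 genes. These were Tgm3, at 1.35 ± 0.36 (95% interval 0.56 to 2.14, limma adjusted p = 0.58), and Ivl, at 0.82 ± 0.30 (0.16 to 1.47, adjusted p = 0.825). For Flg the difference was 0.14 with a 95% interval of -1.14 to 1.43, and for Flg2 it was -0.04 with -0.89 to 0.82, so that changes of any size within these intervals remain possible. Of the 12 genes called in this comparison 4 were among the 15 hair shaft genes, whose median was 2.24, and the part of hair in the value of Tgm3 was not tested.

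Loss of IL-6 in the absence of the transgene was the next question. The labels give IL-6KO pools as involved and WT pools as uninvolved skin, although the protocol says matching regions were taken. Genotype and skin type label therefore cannot be told apart in this comparison. In IL-6KO skin, 2 of the 8 rose over WT, against 0.455% of all genes, with a median of 1.74 for the members and -0.01 for all genes. Casp14 rose by 3.20 ± 0.60 (9.16-fold, limma adjusted p = 0.0384) and Tgm3 by 2.29 ± 0.36 (4.9-fold, limma adjusted p = 0.0194), at both ages. The limit given above for the low WT levels of these genes holds for these folds too. Flg differed by 2.76 ± 0.59 (limma adjusted p = 0.073), Hrnr by 2.46 ± 0.50 (0.0622), Ivl by 1.19 ± 0.30 (0.146) and Tgm1 by 1.12 ± 0.32 (0.22). Flg2 at -0.24 ± 0.40 and Lor at 0.09 ± 0.32 lay near 0. Flg and Hrnr passed without the 4 IL-17C+KO arrays (limma adjusted p = 0.0124 and 0.0381), without any 1 IL-17C+ uninvolved or IL-17C+KO involved pool, and among genes above the array median (0.0482 and 0.0414). The call of Tgm3 ended without any 1 of the 4 pools compared, and that of Casp14 also without either IL-17C+ involved pool or without the intensity trend (limma adjusted p = 0.0633).

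Here, hair genes moved along with the members. Of 15 hair shaft genes measured (16 listed), 9 were higher in IL-6KO than in WT skin, at a mean level of 8.67 to 8.92 against 5.60 to 6.12, and Tchhl1, a hair-associated relative of filaggrin, was the 1 gene of 14 in its list to rise (2.86 ± 0.52, limma adjusted p = 0.0376). Muscle genes had a median difference of -1.17, with 2 of 21 called lower, and a mean level of 8.18 to 8.89 in IL-6KO against 9.52 to 10.33 in WT skin. Fibroblast genes had a median of -0.94, with 3 of 7 called lower. With the muscle list as a covariate 0% of all genes passed, and Casp14 differed by 1.83 and Tgm3 by 1.44 (limma adjusted p = 0.998 and 0.941). Their part in the result was not tested otherwise. Il17c, at 1.42 ± 0.30 above WT, did not pass (limma adjusted p = 0.0661).

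Comparisons within mice lacking IL-6 gave no call among the 8 genes. IL-17C+KO involved over IL-6KO skin called 0.171% of all genes and no member, with 1 of 8 and 875 of all genes at an unadjusted limma p under 0.05 (Tgm3, -0.89 ± 0.36). Hair shaft genes were lower there, 7 of 15 called, with a median of -3.18. IL-17C+KO uninvolved over IL-6KO skin called 0.397% of genes and no member, with 2 of 8 and 1652 of all genes at an unadjusted limma p under 0.05: Flg2 at -1.47 ± 0.40 (adjusted p = 0.219) and Lor at -0.74 ± 0.32 (0.631). Neutrophil genes were higher, 7 of 11 called. IL-17C+KO involved over IL-17C+KO uninvolved skin called 0.505% of genes and no member. In that comparison, where 7 of 11 neutrophil genes were called lower, 2 of 8 members and 1355 of all genes had an unadjusted limma p under 0.05, Flg2 at 1.87 ± 0.40 (adjusted p = 0.0678) and Lor at 1.24 ± 0.32 (0.169), both higher in the involved label at both ages. With genotype and age as a pair, Flg2 passed (limma adjusted p = 0.0226), as it did after another quantile normalization (0.0389) and when either WT pool was left out. The part of hair and neutrophil genes in these values was not tested.

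The IL-17C+KO site comparison took opposite signs at the 2 ages for several members. Involved minus uninvolved was -1.89 at 10 weeks and 0.73 at 14 weeks for Flg, -2.65 and 0.50 for Casp14, -1.53 and 0.36 for Tgm3 and -1.08 and 0.20 for Tgm1. For Hrnr it was -0.10 and 1.34, and for Ivl -0.17 and 0.86. In the 10-week IL-17C+KO involved pool muscle genes averaged 10.02 and hair shaft genes 4.42, against 8.59 and 6.54 in the 14-week one, and the 10-week pool was the low one for Flg, Casp14, Tgm1 and Tgm3. With 1 array per age on each side, this split has no test.

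Across genotypes at the same site label, the effect of IL-6 loss in transgenic skin had opposite signs at the 2 sites for Flg2, a difference that the site interaction below tests. In involved skin, IL-17C+KO over IL-17C+ called 0.649% of all genes and 1 of the 8 members: Flg2 rose by 2.65 ± 0.40 (6.28-fold, limma adjusted p = 0.00954), to 9.61 and 9.07 against 6.81 and 6.57. Lor differed by 1.06 ± 0.32 (limma adjusted p = 0.205) and Casp14 by -0.82 ± 0.60 (0.769). In uninvolved skin the same contrast called 0.712% of genes and again 1 member, Casp14, which rose by 2.94 ± 0.60 (7.66-fold, limma adjusted p = 0.0439), while Flg differed by 2.48 ± 0.59 (0.111) and Flg2 by -1.66 ± 0.40 (0.107). Rptn rose there too, by 3.90 ± 0.62 (limma adjusted p = 0.0101), the only gene of the 5 lists to pass. Neutrophil genes ran against Flg2 in both contrasts, with 7 of 11 lower in the first and 8 of 11 higher in the second, and their part in the result was not tested. Both calls depend on the site labels of the IL-17C+KO libraries, where Flg2 averaged 9.34 in involved and 7.47 in uninvolved skin and Casp14 averaged 7.71 and 8.79.

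These calls, like those over all genes, were sensitive to single arrays. Flg2 lost its call in the first contrast without either IL-17C+ involved pool or the 10-week IL-17C+KO involved pool. Its difference in these fits was 2.646, 2.658 and 2.475. With the muscle covariate Flg2 did not pass either (difference 2.18, limma adjusted p = 0.854), in a fit that called 0% of all genes. Casp14 lost its call in the second without the intensity trend (limma adjusted p = 0.0718), after another quantile normalization (0.0517), with the muscle covariate (difference 1.37, adjusted p = 1) and without any 1 WT, IL-6KO, IL-17C+ involved or IL-17C+KO uninvolved pool or the 14-week IL-17C+ uninvolved pool. The muscle covariate fit called 0.0135% of all genes there. Flg2 passed in the second after that normalization (-1.72, limma adjusted p = 0.0373) or without either WT pool, Flg without either IL-17C+KO involved pool or the 10-week IL-17C+ uninvolved pool, and Hrnr without that last pool (0.0392).

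The interaction terms tested these differences directly. The site effect (involved minus uninvolved) in IL-17C+KO mice minus that in IL-17C+ mice was 4.32 ± 0.56 for Flg2 (limma adjusted p = 0.00128), from 1.87 in IL-17C+KO and -2.44 in IL-17C+ mice, and it still passed when any 1 of the 12 arrays was left out. For Casp14 it was -3.76 ± 0.84 (limma adjusted p = 0.0333), from -1.08 and 2.68, and the call ended without either IL-17C+ involved pool, the 14-week IL-17C+ uninvolved pool or the 10-week pool of either IL-17C+KO site. These were 2 of 8 members, against 2.58% of all genes. Flg at -2.87 ± 0.84 (limma adjusted p = 0.111), Lor at 1.47 ± 0.45 (0.133), Tgm1 at -1.45 ± 0.45 (0.144), Tgm3 at -1.33 ± 0.51 (0.289), Hrnr at -0.52 ± 0.71 (0.894) and Ivl at 0.49 ± 0.43 (0.789) did not pass. Flg (limma adjusted p = 0.00428) and Tgm3 (0.0408) passed without the 14-week IL-17C+KO involved pool, and Lor after another quantile normalization (0.0482). In this interaction 11 of 11 neutrophil genes were called lower (median -7.11), the sign of Casp14 and the opposite of Flg2. These terms depend on which IL-17C+KO libraries count as involved. With those labels exchanged, the site effects of Flg2 and Casp14 would have the same sign in both genotypes, and both terms would be smaller. Leaving out single arrays does not bear on this. With the muscle covariate the term was 3.41 for Flg2 and -0.52 for Casp14, neither passing (limma adjusted p = 1), and 0.0496% of all genes passed. In the main fit 19 of 21 muscle genes were called in this term.

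In involved skin, the transgene effect without IL-6 (IL-17C+KO over IL-6KO) minus that with IL-6 (IL-17C+ over WT) was called for 3 of 8 members, against 1.31% of genes. It was 2.89 ± 0.56 for Flg2 (limma adjusted p = 0.026), -4.02 ± 0.84 for Casp14 (0.0371) and -2.98 ± 0.51 for Tgm3 (0.0139). These come from 0.41 without and -2.48 with IL-6 for Flg2, -0.84 and 3.17 for Casp14 and -0.89 and 2.10 for Tgm3. IL-6KO over WT skin, which also enters the term, was 3.20 for Casp14 and 2.29 for Tgm3. IL-17C+KO over IL-17C+ involved skin was -0.82 and -0.69 for these genes, with no call. The skin type label, involved for IL-6KO and uninvolved for WT pools, differs within the term too. In the same term 14 of 21 muscle genes were called higher (median 3.05), 8 of 11 neutrophil genes lower (median -3.43) and 13 of 15 hair shaft genes lower (median -4.88), and the part of the last 2 lists was not tested. Flg, at -3.15 ± 0.84 (limma adjusted p = 0.112), passed without the 14-week IL-17C+KO involved pool (0.00376). The call of Casp14 ended without the intensity trend (limma adjusted p = 0.0572) and without any 1 of the WT, IL-6KO or IL-17C+ involved pools or the 10-week IL-17C+KO involved pool. Those of Flg2 and Tgm3 each ended without either IL-6KO pool, the 14-week WT pool, the 10-week IL-17C+ involved pool or the 10-week IL-17C+KO involved pool, and that of Flg2 also without the 14-week IL-17C+ involved pool. With the muscle covariate the term was 2.04 for Flg2, -0.98 for Casp14 and -1.08 for Tgm3 (limma adjusted p = 1 for each), and 0% of all genes passed. In fits without the age term, Casp14 passed in none of its 6 comparisons (limma adjusted p of 0.0602 to 0.145), and neither did Tgm1 in IL-17C+ involved over WT (0.0576) nor Tgm3 in IL-6KO over WT skin (0.0659).

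Other barrier genes joined the interactions. The site term was called for Rptn at -6.28 ± 0.88, Degs2 at -2.17 ± 0.42, Cebpb at -1.43 ± 0.33, and with the opposite sign for the envelope protein sciellin (Scel, 2.24 ± 0.50) and the desmosomal Dsg1a (1.77 ± 0.42), with limma adjusted p of 0.00218, 0.016, 0.0414, 0.0306 and 0.0447. Rptn thus had the sign of Casp14, and Scel and Dsg1a that of Flg2. In the transgene term, 4 of 14 filaggrin-related genes were lower, among them Tchh at -5.98 ± 1.28, Rptn at -5.31 ± 0.88 and Tchhl1 at -4.43 ± 0.74 (limma adjusted p = 0.0414, 0.0118 and 0.0118).

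**Figure D4:**
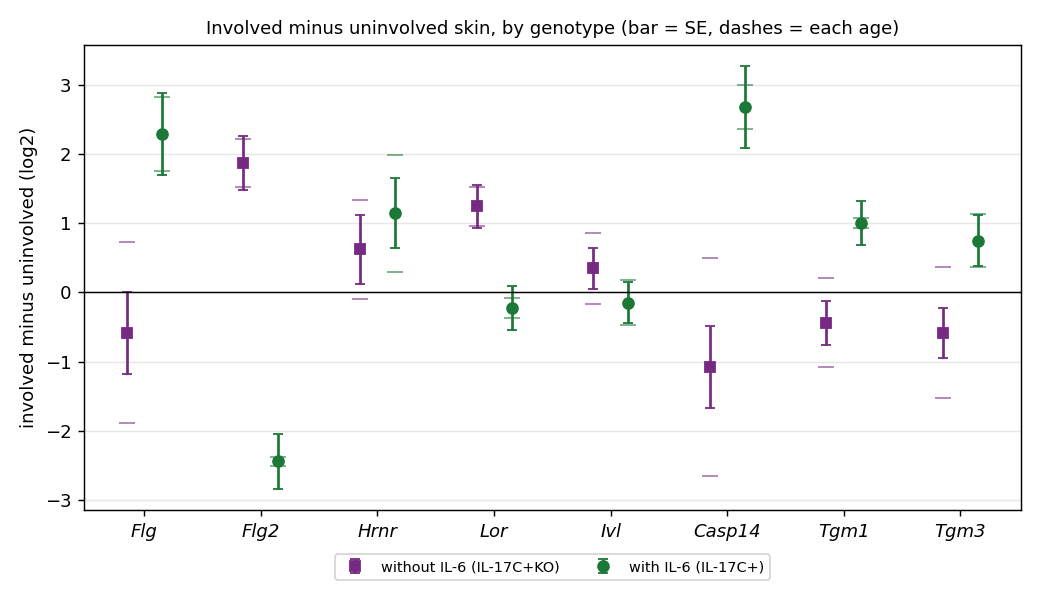
Involved minus uninvolved skin (log2, y axis) for the 8 barrier genes (x axis) in IL-17C+KO mice (squares) and IL-17C+ mice (circles), with SE bars and dashes for the difference at each age. Flg2 is above 0 in IL-17C+KO (1.87) and below 0 in IL-17C+ mice (-2.44), while Casp14 has the opposite signs (-1.08 and 2.68).

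Age by itself moved none of the 8 genes past the threshold. At 14 over 10 weeks no member and 0% of all genes passed, with 2 members and 1856 genes at an unadjusted limma p under 0.05. These members were Casp14, at 0.93 ± 0.34, and Ivl, at 0.49 ± 0.18 (limma adjusted p = 0.571 for both).

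Likeness over the 12 arrays described the 2 courses without a test, as all pairs share the same arrays and these fall into clusters. Flg was closest to Casp14 (Pearson r 0.98) and Hrnr (0.90), while Flg2 was closest to Lor (0.77) and had an r of -0.47 with Flg. Other genes were eligible if above the median gene in mean level, without predicted loci, small RNAs and olfactory or vomeronasal receptors. Among these 10486 genes, the 3 most like Flg were Ide, Il1f8 and Porcn (r 0.99, 0.99 and 0.98). The 3 most like Casp14 were Il1f8, Blmh and Ide (0.99, 0.98 and 0.98). Flg2 was most like Lce1m, a late cornified envelope gene, Krt77 and Serpinb7 (0.98, 0.98 and 0.98). Tgm1 had Cnfn and Dsg1b nearest (0.99 and 0.98), Lor had Sbsn, another product of the suprabasal layers (0.94), and the nearest of Hrnr, Ivl and Tgm3 were Casp4 (0.98), Anxa9 (0.94) and Ammecr1 (0.96).

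Tissue lists measured in the same pools ran alongside. Suprabasal keratinocyte genes, 8 of 8 measured, averaged 9.20 in IL-17C+ involved, 9.47 in IL-17C+ uninvolved, 9.83 in IL-17C+KO involved, 9.24 in IL-17C+KO uninvolved, 9.81 in IL-6KO and 9.41 in WT skin. Fibroblast genes, 7 of 8 measured, averaged 9.88 in IL-17C+KO involved and 9.59 in IL-6KO skin, and between 10.75 and 10.88 in the other groups. Flg and Casp14 had IL-17C+ uninvolved and WT skin together at the low end. The neutrophil list was low there (4.05 and 3.98), but also in IL-6KO (4.56) and IL-17C+KO involved skin (4.61). In IL-6KO skin Flg and Casp14 were high, at means of 10.30 and 8.56. The muscle list (10.02 and 9.92) and the basal keratinocyte list (8.87 and 8.68) had IL-17C+ uninvolved and WT skin at the high end. The T cell list (4.47 and 4.61) did so by little, as IL-17C+ involved skin averaged 4.41. None of its 7 measured genes was called in any comparison.

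**Figure D5:**
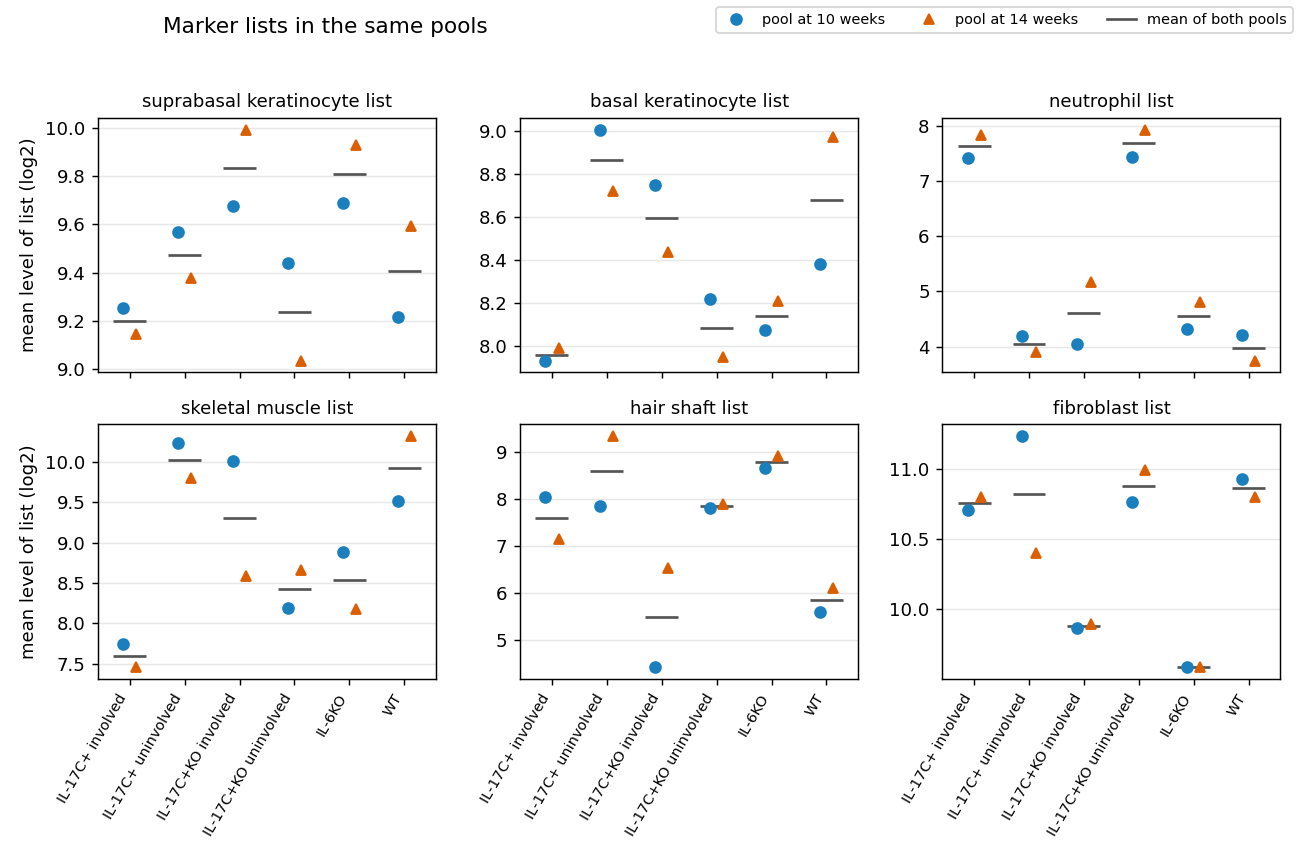
Mean level (log2 intensity, y axis, scaled per panel) of 6 marker lists in every pool of the 6 groups (x axis), circles for 10 weeks, triangles for 14 weeks and a line at the mean. The neutrophil list is high in IL-17C+ involved (7.63) and IL-17C+KO uninvolved skin (7.68), and the muscle list is high in IL-17C+ uninvolved (10.02) and WT skin (9.92).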

How the data were processed

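RNA from 12 pools of mouse dorsal skin was read on 1 array each. The authors deposited linear intensities, made per the submitters' processing notes by RMA in Affymetrix Expression Console (the sources used here name no version, genome build or probe filter). RMA equalizes the distribution between arrays, so differences are relative to the array as a whole. Array medians on the log2 scale lay between 4.51 and 4.62. Of 41345 rows, 23521 name 1 gene, 1814 several and 16010 none. Here log2 was taken, rows naming 1 gene were kept, and the row with the highest mean stood for a gene, which left 22180 genes.

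Group plus age was fitted over all 12 arrays with limma 3.58.1 in R 4.3.3 (lmFit, then eBayes with the intensity trend), which left 5 residual degrees of freedom beside 7.65 from the prior. Benjamini-Hochberg adjustment covered all genes of each of 12 comparisons, and an adjusted p under 0.05 counted as passing. The script was tested on simulated data. Samples were grouped by title alone. The labels carry no replicate numbers, and age stands as a term in the fit.

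All 8 members were named. From each of 5 lists of related genes, the text may name the 3 largest that passed with the largest that missed, and the 2 largest if nothing passed. Keratinocyte markers and the most alike genes were named as well, and list levels were taken for 11 cell types. The members and lists were chosen with earlier results of these data known. Promoters came from RefSeq tables of GRCm38.p6. The alternatives were no intensity trend, a filter at the array median, another quantile normalization, a gene's rows averaged, no age term, the muscle list mean as a covariate, genotype and age as a pair for the site comparisons, and each array left out in turn, where a lone pool was assumed to vary like the other groups. Another 2 fits without IL-6-deficient libraries were added after seeing the data.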

Additional observations from a re-analysis of the deposited data

Results flagged for a closer look

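Results that differed between genotypes by a test of the difference itself (limma interaction terms) were the following. In the site term, the involved minus uninvolved difference was higher by 4.316 (log2) in IL-17C+KO than in IL-17C+ mice for Flg2, and for Casp14 the term was -3.758. In the transgene term in involved skin, the difference was 2.889 for Flg2, -4.016 for Casp14 and -2.984 for Tgm3. IL-6KO over WT skin, at 3.20 for Casp14 and 2.29 for Tgm3, enters that term. The neutrophil list, at 4.61 in IL-17C+KO involved and 7.68 in IL-17C+KO uninvolved skin, had the opposite site order from that of IL-17C+ mice (7.63 involved and 4.05 uninvolved). Muscle genes were called in both terms, and hair shaft genes in the transgene term only (13 of 15, against 0 of 15 in the site term). The part of these lists, or of the labels, in the 5 terms was not tested beyond the muscle covariate.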

How the results depend on the processing

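Each of the 12 counts of called members was recomputed under the alternatives, and no called difference changed sign. The muscle list as a covariate left 0 members called in every comparison that had any, where it had been 4 in IL-17C+ involved over WT. This fit called 0.0496% of all genes in the site term, 0.0135% in IL-17C+KO over IL-17C+ uninvolved skin and 0% in the rest of these comparisons. Without the age term, calls fell to 2 in IL-17C+ involved over WT, 1 in IL-17C+ involved over uninvolved, 0 in IL-6KO over WT, 0 in IL-17C+KO over IL-17C+ uninvolved skin, 2 in the transgene term and 1 in the site term. In that order it called 1.3%, 1.36%, 0.117%, 0.532%, 0.816% and 2.27% of all genes. Without the intensity trend the calls were 1 in IL-17C+ involved over uninvolved, 1 in IL-6KO over WT, 0 in IL-17C+KO over IL-17C+ uninvolved skin and 2 in the transgene term. The shares of all genes called there were 1.55%, 0.284%, 0.645% and 1.06%. The filter at the array median and the fit without the 4 IL-17C+KO arrays each gave 4 in IL-6KO over WT. There they called 1.22% and 0.595% of the genes tested. Quantile normalization and the genotype and age pair each gave 1 in IL-17C+KO involved over uninvolved, and the pair gave 1 in IL-17C+ involved over uninvolved. The causes were not tested.

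With 1 array left out, the count ranged from 0 to 5 for IL-17C+ involved over WT, 0 to 3 for IL-17C+ involved over uninvolved, 0 to 4 for IL-6KO over WT, 0 to 1 for IL-17C+KO involved over uninvolved, 0 to 1 for IL-17C+KO over IL-17C+ involved skin, 0 to 3 for IL-17C+KO over IL-17C+ uninvolved skin, 0 to 4 for the transgene term and 1 to 4 for the site term. It was 0 throughout for IL-17C+ uninvolved over WT, IL-17C+KO involved or uninvolved over IL-6KO, and age. Wherever leaving out an array brought a count of called members down to 0, fewer of all genes were called as well. A fall to 0 therefore cannot be read as particular to these members. No paired analysis by replicate number was possible because the labels give no replicate numbers. With 2 pools per group, the 95% intervals of Flg, Hrnr and Casp14 between groups reach more than 1 on the log2 scale to either side, and those of the other members less.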
